A study of Mus musculus with 6 samples.

Results

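The RANK axis and the osteoclast genes it controls were read in sorted cells of the calvarial suture mesenchyme, the fibrous tissue between the bones of the skull roof. The set holds 10 genes chosen by name: Acp5, Ctsk, Calcr, Oscar, Dcstamp, Ocstamp, Atp6v0d2 and Nfatc1 of osteoclasts, the receptor gene Tnfrsf11a and the ligand gene Tnfsf11. All 10 were found among the 19938 genes measured, each with 1 array feature. The samples were 3 of Axin2+/GFP+ cells, which the study's methods call GFPhi, and 3 of Axin2-/GFP- cells, each a pool of 6 to 8 mice with 1 array per pool. Both populations came from the same kind of mouse, on a mixed C57BL/6J, CD-1 and B6CBAF2 background, with the transgenes Axin2rtTA and TRE-H2BGFP, at postnatal day 28 and after doxycycline given from postnatal day 25 to day 28. In this model the activator rtTA is made where Axin2 is expressed and switches on a nuclear GFP only with doxycycline, so the sort separates cells by GFP and not by lineage. The labels and methods describe the sort by GFP intensity alone.

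Osteoclasts are large cells with many nuclei that arise by fusion of myeloid precursors and dissolve bone. RANKL, the product of Tnfsf11, is made by osteoblasts, osteocytes, stromal cells and some lymphocytes, and binds RANK, the product of Tnfrsf11a, on the precursors. RANK then acts through TRAF6, NF-κB and AP-1 to induce NFATc1, which switches on the genes of fusion and resorption, while the decoy receptor osteoprotegerin, the product of Tnfrsf11b, binds RANKL and blocks it.

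Of the 10 genes, only Nfatc1 passed the test between the populations, and it was lower in Axin2+/GFP+ cells. The test was limma, with p-values adjusted by Benjamini-Hochberg over all 19938 genes and a threshold of 0.05. It called 1 of the 10 genes lower, where 11.4% of all genes were called lower, and 0 of them higher, where 4.64% of all genes were. With p under 0.05 and no adjustment, limma had 2 of the 10 lower, Nfatc1 and Acp5, and 0 higher, against 17.6% and 16.3% of all genes. The methods' t-test without adjustment also had those 2 lower and 0 higher, against 13.8% and 14.8% of all genes. After adjustment that test kept Nfatc1 alone as lower, with 2.60% of all genes lower, and had 0 of the 10 higher, with 1.06% of all genes higher. The median log2 change of the 10 genes was 0.20, against 0.14 over all genes. Of the log2 changes 8 were positive and 2 negative. The groups did not overlap for 4 of the 10 genes, 2 higher and 2 lower, where 23.1% of all genes lay wholly higher and 17.8% wholly lower. Each p-value covers the spread between pools only. In such bulk samples fewer cells of a type and less RNA per cell cannot be told apart.

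The arrays carry no detection calls, so 1194 olfactory and vomeronasal receptor genes were used as a reading of background. Their 95th percentile was 3.0 on the log2 scale in Axin2+/GFP+ cells and 2.73 in Axin2-/GFP- cells. The means of 5 of the 10 genes were above it in Axin2+/GFP+ cells and of 4 in Axin2-/GFP- cells. Ocstamp was above it in Axin2+/GFP+ cells only, at 3.003 against 2.999. Its replicate 1 was at 3.54 there, and replicates 2 and 3 were at 2.74 and 2.73. The receptor genes' own log2 changes had a median of 0.30 and quartiles at 0.15 and 0.48, and the changes of 6 of the 10 genes lay between those quartiles. None of 8 measured markers of suture mesenchyme passed the test between the populations, although all 8 log2 changes were positive. Both populations were sorted from that tissue, so the test does not show how strongly it was marked. In each population 3 of the 8 markers had means under the 95th percentile given above, and the rest read over it. Prrx1, a transcription factor of skull mesenchyme, differed by 0.88 on the log2 scale (limma adjusted p = 0.0780), and Axin2, the gene that drives the sort, by 0.55 (limma adjusted p = 0.0802). Prrx1 passed after cyclic loess (limma adjusted p = 0.0481), and Axin2 passed without Axin2+/GFP+ replicate 2, at a log2 change of 0.70. Prrx1 passed under 2 of the 17 alternatives and Axin2 under 1. When centred on the receptor genes, the log2 change of Axin2 was 0.24. The means of Axin2, 2.83 in Axin2+/GFP+ and 2.28 in Axin2-/GFP- cells, were under the 95th percentile of the receptor genes in both populations.

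**Figure D1:**
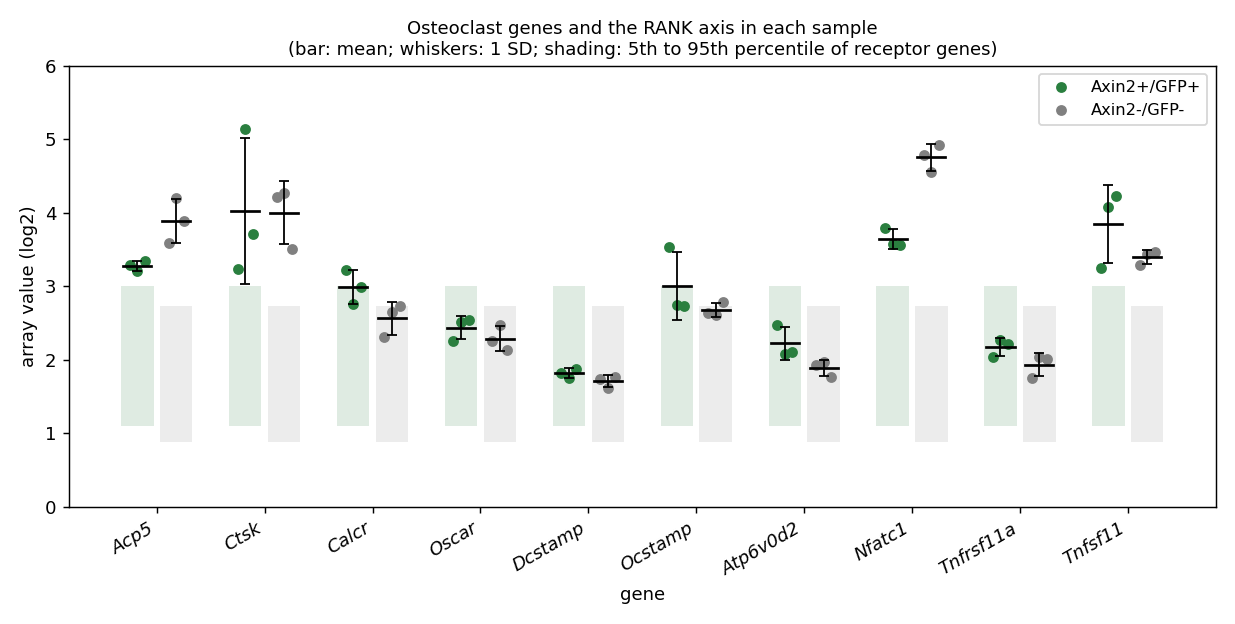
The array value on the log2 scale (vertical axis) is shown for each of the 10 genes (horizontal axis), with 1 point per sample, green for Axin2+/GFP+ and grey for Axin2-/GFP- cells, a bar at the mean, whiskers of 1 SD and shading from the 5th to the 95th percentile of the receptor genes. The points of Nfatc1 are apart between the populations, Ctsk has 1 high Axin2+/GFP+ sample at 5.14, and Oscar, Dcstamp, Atp6v0d2 and Tnfrsf11a lie within the shading.

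Because Nfatc1 was the gene that changed, start-site windows of genes known as its targets in osteoclasts are shown, 1 for a gene whose populations did not overlap (Acp5) and 1 for a gene whose populations did (Oscar). The RefSeq table of promoters (build GRCm38.p6) holds windows for 6 of the 10 genes, 9 windows in all, each from 250 bases before to 50 bases after a start. Each was searched on both strands for GGAAA, the core that NFAT proteins bind, for TGANTCA, an AP-1 site, and for GAGGAA, a core for PU.1 that can overlap GGAAA by its last bases. GGAAA was in 7 of the 9 windows (77.8%), against 61.3% of all 32851 windows of the table. TGANTCA was in 0 of the 9, against 7.8% of all windows, and GAGGAA in 2, against 28.3%. The Acp5 window, chr9:22130549-22130848 on the minus strand, is 1 of 3 listed for that gene, and the Oscar window is chr7:3616108-3616407 on the minus strand. The Acp5 gene spans 22126727 to 22135746, so the window shown lies inside it. The outermost start is in another of its windows, chr9:22135697-22135996. Capitals mark every match to GGAAA or GAGGAA on either strand, so that TTTCC is GGAAA read on the other strand.
Acp5: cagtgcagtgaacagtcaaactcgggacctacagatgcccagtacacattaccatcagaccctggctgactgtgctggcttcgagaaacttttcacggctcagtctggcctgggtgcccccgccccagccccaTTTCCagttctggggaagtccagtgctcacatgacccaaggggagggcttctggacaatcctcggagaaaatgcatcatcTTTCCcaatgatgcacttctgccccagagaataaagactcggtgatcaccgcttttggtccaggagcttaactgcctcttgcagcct
Oscar: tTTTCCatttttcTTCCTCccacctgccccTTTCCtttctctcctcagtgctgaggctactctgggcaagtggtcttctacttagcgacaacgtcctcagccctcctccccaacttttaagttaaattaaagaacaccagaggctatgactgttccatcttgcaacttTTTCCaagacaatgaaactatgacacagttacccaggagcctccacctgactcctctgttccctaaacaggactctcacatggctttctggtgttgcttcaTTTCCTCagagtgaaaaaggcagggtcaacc
The Acp5 window shown holds 2 matches to GGAAA and 0 to GAGGAA, and the Oscar window 4 and 2, of which 1 of each overlap after the start. The windows of Acp5 not shown hold 1 match to GGAAA and 0 to GAGGAA each. Windows of Ctsk and Tnfsf11 hold 1 match to GGAAA each, 1 of the 2 windows of Calcr holds 1, and the window of Tnfrsf11a holds 0. A match is a stretch of letters and not a bound site.

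The ligand gene Tnfsf11 read above all Axin2-/GFP- samples in 2 of the 3 Axin2+/GFP+ samples and did not pass the test. Its log2 values were 3.25, 4.07 and 4.22 in Axin2+/GFP+ cells, against 3.29, 3.44 and 3.46 in Axin2-/GFP- cells. Replicate 1 of Axin2+/GFP+ lay below all the Axin2-/GFP- samples, and replicates 2 and 3 lay above them all. The log2 change was 0.45 (95% interval -0.14 to 1.04, standard error 0.26, limma adjusted p = 0.247), and the exact two-sided permutation test gave p = 0.4, where 0.1 is the smallest that 3 samples against 3 allow. Without Axin2+/GFP+ replicate 1 the gene passed as higher, with a log2 change of 0.75 (limma adjusted p = 0.0308). Over the other 16 alternatives its adjusted p ran from 0.153 to 0.821 and it did not pass. Only 0.838% of the receptor genes reached the mean of Tnfsf11 in Axin2+/GFP+ cells and 1.01% in Axin2-/GFP- cells, so its mean read above background in both. Replicate 1 of Axin2+/GFP+, at 3.25, was under the 95th percentile of the receptor genes in its own array, 3.30. The log2 change of Tnfsf11 lay within the quartiles of the receptor genes' own changes. It was 0.13 when the arrays were centred on those genes (limma adjusted p = 0.821).

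The receptor gene Tnfrsf11a read close to background in both populations. Its log2 values were 2.03, 2.27 and 2.22 in Axin2+/GFP+ cells, against 1.75, 2.03 and 2.01 in Axin2-/GFP- cells. The groups overlapped by replicate 1 of Axin2+/GFP+. Between the populations it differed by 0.24 on the log2 scale (95% interval -0.15 to 0.63, limma adjusted p = 0.335), and 28% of the receptor genes reached its mean in Axin2+/GFP+ cells and 21.9% in Axin2-/GFP- cells.

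The decoy receptor gene Tnfrsf11b gave no difference that could be told from 0. Its log2 values were 2.61, 2.65 and 2.73 in Axin2+/GFP+ cells, against 2.53, 2.57 and 2.77 in Axin2-/GFP- cells. The log2 change of 0.039 (95% interval -0.33 to 0.41, limma adjusted p = 0.875) has an interval that spans both directions. Its sign turned under 4 scalings and without Axin2-/GFP- replicate 1. Tnfrsf11b read within the background range, under the 95th percentile of the olfactory and vomeronasal receptor genes in both populations. Of those genes 10.6% reached its mean in Axin2+/GFP+ cells and 6.03% in Axin2-/GFP- cells, so equal expression is not shown.

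Nfatc1, the transcription factor at the head of the osteoclast programme, was lower in every Axin2+/GFP+ sample. Its log2 values were 3.80, 3.57 and 3.57 in Axin2+/GFP+ cells, against 4.78, 4.55 and 4.92 in Axin2-/GFP- cells. The samples were tight within each population, over 0.23 in Axin2+/GFP+ and 0.37 in Axin2-/GFP- cells, and the populations did not overlap. The log2 change was -1.11 (95% interval -1.51 to -0.71, standard error 0.18, limma adjusted p = 0.00462), so that Axin2-/GFP- cells read 2.16 times as high. Of all genes, 7.23% had a change at or below it. The call was kept under all 17 alternatives, with log2 changes from -1.43 to -0.73 and adjusted p-values from 0.000914 to 0.0440.

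Nfatc1 is also expressed in lymphocytes and other cells, and B-lineage markers ran the same way as Nfatc1, while neutrophil markers went the other way (13 of 15 higher, median 2.08) and macrophage and monocyte markers were split (2 higher and 2 lower of 16). Every one of 12 B-lineage genes measured fell in Axin2+/GFP+ cells, with a median of -4.40, Cd79b of the B cell receptor complex at -5.28 and the early B cell factor gene Ebf1 at -5.72. The mean log2 level of the B-lineage list was 2.83 to 2.99 over the Axin2+/GFP+ samples, against 6.73 to 7.21 over the Axin2-/GFP- samples. In Axin2+/GFP+ cells 6 of the 12 markers were under the 95th percentile of the receptor genes, and in Axin2-/GFP- cells 0 were. Of 9 measured T and NK cell markers 1 was lower, Gzma, a granzyme of cytotoxic lymphocytes, at -1.28. The shares over all genes were 11.4% lower and 4.64% higher. The Gzma call was lost without Axin2-/GFP- replicate 1 (-1.06), with quantile normalization (-0.93) and cyclic loess (-0.93), and in the methods' t-test, and the other 8 markers did not pass. Klrb1c, a receptor of NK cells, differed by a log2 value of -0.46 and did not pass. The list's mean level was 2.77 to 2.84 in Axin2+/GFP+ and 3.0 to 3.2 in Axin2-/GFP- samples. The part of these cells in the Nfatc1 difference was not tested.

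Of the resorption genes, Acp5 read wholly lower in Axin2+/GFP+ cells without passing, and Ctsk overlapped. Acp5, the tartrate-resistant acid phosphatase (TRAP) by which osteoclasts are stained, had log2 values of 3.29, 3.2 and 3.34 in Axin2+/GFP+ cells, against 3.58, 4.19 and 3.88 in Axin2-/GFP- cells. The populations did not overlap, and the spread was wider among the Axin2-/GFP- samples. The log2 change of -0.61 (95% interval -1.05 to -0.16, standard error 0.20, limma adjusted p = 0.0672) did not pass over all genes. It passed after median centring (-0.72, limma adjusted p = 0.0375) and after centring on the receptor genes (-0.93, limma adjusted p = 0.0104), and not under the other 15 alternatives.

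Ctsk, cathepsin K, the collagen-cutting protease of osteoclasts, was the most variable of the 10 genes. Its log2 values were 3.23, 5.14 and 3.70 in Axin2+/GFP+ cells, against 4.21, 4.27 and 3.51 in Axin2-/GFP- cells. Replicate 2 of Axin2+/GFP+ read highest of all 6 samples and replicate 1 lowest. The log2 change was 0.028 (95% interval -1.0 to 1.05, limma adjusted p = 0.967), and it was -0.53 without that replicate 2 and 0.43 without that replicate 1, so its direction is not settled by these samples. Fibroblasts and stromal cells can also express Ctsk.

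Atp6v0d2, the d2 subunit of the proton pump, which also takes part in osteoclast fusion, read within the background range. Its log2 values were 2.47, 2.08 and 2.11 in Axin2+/GFP+ cells, against 1.93, 1.97 and 1.76 in Axin2-/GFP- cells. The populations did not overlap, with Axin2+/GFP+ higher. The log2 change was 0.34 (95% interval -0.08 to 0.75, limma adjusted p = 0.221), within the quartiles of the receptor genes' own changes, and it was 0.016 when the arrays were centred on those genes. Atp6v0d1, the d1 subunit made in most cells, differed by a log2 value of -0.16 (limma adjusted p = 0.694), whose sign turned without Axin2+/GFP+ replicate 2 or Axin2-/GFP- replicate 1.

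The surface genes of mature osteoclasts and the fusion genes gave no call. Calcr, the calcitonin receptor, had log2 values of 3.22, 2.75 and 2.99 in Axin2+/GFP+ cells, against 2.31, 2.65 and 2.73 in Axin2-/GFP- cells. The populations did not overlap, but the nearest samples, at 2.75 and 2.73, were almost level. Its log2 change was 0.43 (95% interval -0.02 to 0.88, standard error 0.20, limma adjusted p = 0.166), and it was 0.11 when centred on the receptor genes. Its mean was reached by 5.19% of the receptor genes in Axin2+/GFP+ cells and 6.45% in Axin2-/GFP- cells.

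Oscar, an immunoglobulin-like co-receptor that signals with FcRγ, had log2 values of 2.25, 2.51 and 2.54 in Axin2+/GFP+ cells, against 2.25, 2.47 and 2.13 in Axin2-/GFP- cells. The samples were interleaved. Its log2 change was 0.15 (95% interval -0.25 to 0.56, limma adjusted p = 0.551).

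Dcstamp and Ocstamp encode related membrane proteins needed for the fusion of osteoclast precursors. Dcstamp had log2 values of 1.82, 1.75 and 1.88 in Axin2+/GFP+ cells, against 1.73, 1.61 and 1.77 in Axin2-/GFP- cells. It read in the middle of the background, with 48.0% of the receptor genes reaching its mean in Axin2+/GFP+ and 33.7% in Axin2-/GFP- cells. Its log2 change was 0.11 (95% interval -0.25 to 0.47, limma adjusted p = 0.617). Ocstamp had log2 values of 3.54, 2.74 and 2.73 in Axin2+/GFP+ cells, against 2.63, 2.61 and 2.79 in Axin2-/GFP- cells. Replicate 1 of Axin2+/GFP+ stood above the other 5 samples, and without it the log2 change was 0.059, against 0.33 with all samples (95% interval -0.22 to 0.87, limma adjusted p = 0.351). The mean of Ocstamp was reached by 5.03% of the receptor genes in Axin2+/GFP+ cells and 5.53% in Axin2-/GFP- cells.

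**Figure D2:**
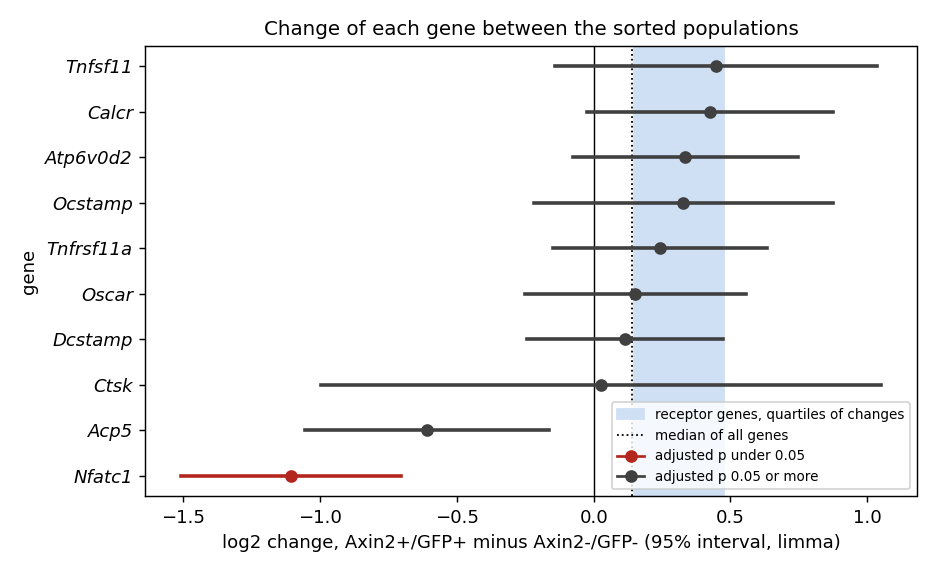
The log2 change between Axin2+/GFP+ and Axin2-/GFP- cells (horizontal axis) is shown for each of the 10 genes (vertical axis) as a point with its 95% interval from limma, red where the adjusted p is under 0.05, with the span between the quartiles of the receptor genes' changes in blue and the median of all genes as a dotted line. The intervals of Nfatc1 (-1.51 to -0.71) and Acp5 (-1.05 to -0.16) lie below 0, and those of the other 8 genes include 0.

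The direction of Oscar, Dcstamp, Tnfrsf11a and Ctsk depended on how the arrays were scaled. The upper quartile of all features was 3.72 to 3.76 in Axin2+/GFP+ and 3.97 to 4.0 in Axin2-/GFP- samples, so the deposited arrays did not share one distribution. The median log2 change over all genes was 0.14 as deposited, 0.033 once each array was centred on its median and -0.18 with the receptor genes as the centre. Of the 10 genes, 8 had a positive change as deposited and 7 with median centring. Quantile normalization left 6 positive, cyclic loess 5 and receptor centring 4. Nfatc1 and Acp5 were negative, and Tnfsf11, Calcr, Ocstamp and Atp6v0d2 positive, under all 5.

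**Figure D3:**
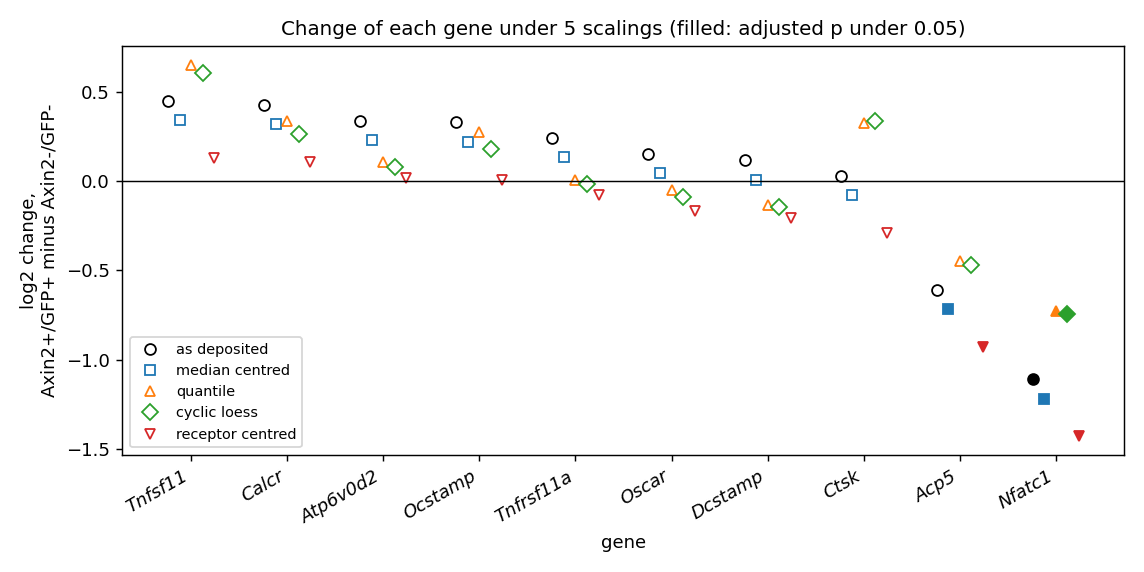
The log2 change between Axin2+/GFP+ and Axin2-/GFP- cells (vertical axis) is shown for each of the 10 genes (horizontal axis) under 5 scalings of the arrays, 1 symbol each, filled where the adjusted p is under 0.05. Nfatc1 is filled under all 5 scalings, Acp5 under 2 of them, and Oscar, Dcstamp, Tnfrsf11a and Ctsk cross 0.

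The other genes of the RANK signal were read from lists. Beside each list's counts stand the shares over all genes, 11.4% called lower and 4.64% called higher. Of 24 genes of the chain from receptor to NF-κB and AP-1, 21 were measured, and 6 were lower, 0 higher and 15 did not pass, with a median log2 change of -0.24. Traf6, the adaptor that RANK recruits, had a mean log2 value of 3.08 ± 0.38 in Axin2+/GFP+ and 4.58 ± 0.20 in Axin2-/GFP- cells (SD, n = 3 each), which is a change of -1.50 (limma adjusted p = 0.00376, standard error 0.23). Relb, a subunit of the alternative NF-κB arm, changed by -1.52, and Ikbkb, a kinase that releases NF-κB, by -1.06. Cyld, a deubiquitinase that restrains TRAF6, changed by -1.50. Tab2, which links TRAF6 to its kinase, at -1.73, and Nfkb2 of the alternative arm, at -0.86, were the others, named after their values were seen. The 6 genes thus held activators and a brake. Traf6 kept its call without any 1 of the 6 samples. The number lower was 3, 1 and 1 without Axin2-/GFP- replicates 1, 2 and 3. The calls of Relb were lost without replicates 2 (-1.48) and 3 (-1.44) of that group, of Ikbkb without 1 (-1.03), 2 (-1.07) and 3 (-1.09), and of Cyld without those 3 (-1.61, -1.54 and -1.35) and without Axin2+/GFP+ replicate 1 (-1.43).

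Osteoclast precursors also need M-CSF, whose gene is Csf1, and signals through ITAM adaptors. Of 11 genes of this arm, 3 were lower, 0 higher and 8 did not pass, with a median of -0.031. The shares over all genes were 11.4% lower and 4.64% higher. The 3 that were lower, Syk (-1.76), Btk (-1.55) and Plcg2 (-1.41), encode signalling enzymes that B cells use as well, and they kept their calls without any 1 sample, although Plcg2 lost its call after quantile normalization (-0.89) and cyclic loess (-0.88). The adjusted p of Syk was 0.00495 and that of Btk 0.00423 from limma. Csf1 differed by a log2 value of -0.031 (95% interval -0.52 to 0.46). Its receptor gene Csf1r, which marks macrophages and osteoclast precursors, had log2 values of 3.33, 3.58 and 3.50 in Axin2+/GFP+ cells, against 3.94, 4.47 and 3.81 in Axin2-/GFP- cells. The populations did not overlap, and the log2 change of -0.60 (limma adjusted p = 0.0838) passed under the same 2 centrings as that of Acp5.

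Of 8 measured transcription factors of the osteoclast lineage, 2 were lower, 1 was higher and 5 did not pass, with a median of -0.20. Among all genes 11.4% were lower and 4.64% higher. Irf8 and Bcl6, which hold back osteoclast formation and are also active in B cells, changed by -2.05 (limma adjusted p = 0.00250) and -1.53 (limma adjusted p = 0.00943), and both kept their calls without any 1 sample. Jdp2, an AP-1 family member that favours osteoclast formation, changed by 0.73 (limma adjusted p = 0.0381). Its call was lost without Axin2+/GFP+ replicate 1 (0.74), 2 (0.79) or 3 (0.66) and without Axin2-/GFP- replicate 1 (0.72) or 3 (0.60).

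A relative of Nfatc1 and 2 genes of calcineurin, the phosphatase that activates NFAT proteins, were lower too. Of 10 genes of the NFAT family and calcineurin beside Nfatc1, 3 were lower, 0 higher and 7 did not pass, with a median of -0.31. Among all genes 11.4% were lower and 4.64% higher. Nfatc3, an NFAT factor of lymphocytes and other cells, had a mean log2 value of 3.74 ± 0.85 in Axin2+/GFP+ and 6.25 ± 0.08 in Axin2-/GFP- cells (SD, n = 3 each), which is a change of -2.50 (limma adjusted p = 0.00325). Ppp3cb and Ppp3cc, catalytic subunits of calcineurin, changed by -1.45 (limma adjusted p = 0.00148) and -1.66 (limma adjusted p = 0.00774). The 3 calls were kept without any 1 sample.

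Of 14 genes of the resorption machinery, 3 were lower, 0 higher and 11 did not pass, with a median of -0.14. The shares over all genes were 11.4% lower and 4.64% higher. Car2, a carbonic anhydrase that supplies protons and is abundant in red cell precursors too, changed by -1.60 (limma adjusted p = 0.0114) and kept its call without any 1 sample, but not after quantile normalization (-1.19) or cyclic loess (-1.17). Tcirg1, the a3 subunit of the proton pump, changed by -1.09 (limma adjusted p = 0.0197), and Clcn7, the chloride transporter beside the pump, by -0.93 (limma adjusted p = 0.0231). Both calls were lost without Axin2+/GFP+ replicate 2 (-1.02 and -0.91), Axin2-/GFP- replicate 1 (-1.06 and -0.76) or Axin2-/GFP- replicate 3 (-0.98 and -0.89), and that of Tcirg1 with quantile normalization (-0.51) and cyclic loess (-0.52). Mmp9, a gelatinase of osteoclasts and neutrophils, differed by a log2 value of 0.78 (limma adjusted p = 0.0961), which passed without Axin2+/GFP+ replicate 3 (1.10) and after cyclic loess (1.17). In the same samples 13 of 15 neutrophil markers were higher and 0 lower, with a median of 2.08, among them Ltf, lactoferrin, at 4.30 and Mpo, myeloperoxidase, at 1.97, and their part in the Mmp9 value was not tested. The mean level of that list was 8.51 to 8.84 in Axin2+/GFP+ and 5.56 to 7.09 in Axin2-/GFP- samples, and 9 were higher without Axin2-/GFP- replicate 2. Itgb3, the β3 integrin by which osteoclasts attach, differed by a log2 value of -0.26 (limma adjusted p = 0.329).

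Of 22 measured subunits and accessory proteins of the V-ATPase proton pump beside Atp6v0d2, 4 were lower, 2 higher and 16 did not pass, with a median of -0.30. Among all genes 11.4% were lower and 4.64% higher. Atp6v1g2 changed by 0.92 (limma adjusted p = 0.00674), kept in all 17 alternatives, and Atp6v1e1 by 1.03 (limma adjusted p = 0.0132). Atp6ap2, an accessory protein of the pump, changed by -1.19 (limma adjusted p = 0.0128) and Atp6v0b, a proteolipid of its membrane part, by -1.15 (limma adjusted p = 0.0138). Atp6v0e (-1.27) and Atp6v1d (-1.11) were the other subunits that were lower, named after their values were seen. The call of Atp6v1e1 was lost without Axin2-/GFP- replicate 3 (0.89), that of Atp6ap2 without replicate 1 (-1.0) and that of Atp6v0b without replicates 2 (-1.06) and 3 (-1.10) of the same group. The number lower was 1 without any of those 3 samples and 2 without Axin2+/GFP+ replicate 1, and the number higher was 4 without that replicate and 1 without Axin2-/GFP- replicate 3.

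Of 13 cathepsins beside Ctsk, 4 were lower, 1 higher and 8 did not pass, with a median of -0.36. Among all genes 11.4% were lower and 4.64% higher. Ctss, cathepsin S of antigen-presenting cells, changed by -2.82 (limma adjusted p = 0.00157), Ctsa by -1.65 (limma adjusted p = 0.00217), Ctse by -1.37 (limma adjusted p = 0.0108) and Ctsb by -0.97 (limma adjusted p = 0.0128). These 4 calls were kept without any 1 sample, and those of Ctse (-0.90 and -0.89) and Ctsb (-0.41 and -0.43) were lost with quantile normalization and cyclic loess. The gene that was higher was Ctsg, cathepsin G of neutrophil granules, which is in the neutrophil list too, at 1.82 (limma adjusted p = 0.0318). It was named after its values were seen, and its call was lost without Axin2-/GFP- replicate 2 or 3. Of 7 proteins of cell fusion and the cell surface, 1 was higher, 0 lower and 6 did not pass, with a median of 0.25. Adam8, a membrane protease of osteoclasts and granulocytes, changed by 0.96 (limma adjusted p = 0.0463), and its call was lost without Axin2+/GFP+ replicate 2 (0.66) or 3 (1.07) and without any 1 Axin2-/GFP- replicate (1.10, 0.87 and 0.92).

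Genes on the side of the cells that make RANKL were split. Of 9 measured receptors and cytokines that raise RANKL in osteoblasts and stromal cells, 3 were higher, 1 lower and 5 did not pass. The shares over all genes were 4.64% higher and 11.4% lower. This list had 5 positive and 4 negative log2 changes and a median of 0.044, against 0.14 over all genes. The number higher was 0 without Axin2-/GFP- replicate 1 or 2 and 1 without replicate 3, and the number lower was 2 without replicate 2. Pth1r, the parathyroid hormone receptor of osteoblasts, changed by 0.80 (limma adjusted p = 0.0167), Ptger2, a receptor of prostaglandin E, by 0.79 (limma adjusted p = 0.0206), and the cytokine gene Il6 by 1.81 (limma adjusted p = 0.0405). Il6st, the shared receptor chain of the IL-6 family, changed by -1.24 (limma adjusted p = 0.0165) and kept its call without any 1 sample. The call of Pth1r was lost without Axin2-/GFP- replicate 1 (0.72) or 2 (0.81), that of Ptger2 without any 1 Axin2-/GFP- replicate (0.82, 0.71 and 0.82), and that of Il6 without any 1 Axin2-/GFP- replicate (1.67, 2.09 and 1.67) or Axin2+/GFP+ replicate 1 (1.35) or 2 (1.66). In the same samples 5 of 10 measured osteoblast and osteocyte markers were higher and 0 lower, with a median of 0.70, among them Col1a2, a collagen of bone, at 1.72 and Ibsp, bone sialoprotein, at 1.84. The mean level of that list was 4.51 to 4.66 in Axin2+/GFP+ and 3.69 to 3.82 in Axin2-/GFP- samples. Its log2 changes were positive for 9 markers and negative for 1, Alpl, named after its values were seen. Alpl read wholly lower in Axin2+/GFP+ cells, at -0.52, without passing (limma adjusted p = 0.0739). Under the 95th percentile of the receptor genes were 4 of the 10 markers in Axin2+/GFP+ cells and 5 in Axin2-/GFP- cells.

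Macrophages share precursors and genes with osteoclasts, so their markers were set beside the osteoclast genes. Of 16 measured macrophage and monocyte markers, 2 were higher, 2 lower and 12 did not pass, with a median of 0.083. The shares over all genes were 4.64% higher and 11.4% lower. Cd68, a lysosomal protein that osteoclasts carry too, changed by -1.49 (limma adjusted p = 0.00203), and Ccr2, a chemokine receptor of monocytes, by -1.41 (limma adjusted p = 0.00895), and both calls were kept without any 1 sample. That of Ccr2 was lost with quantile normalization (-1.07) and in the methods' t-test. The mean level of the list was 3.74 to 3.79 in Axin2+/GFP+ and 3.59 to 3.96 in Axin2-/GFP- samples, and 7 of the 16 markers were under the 95th percentile of the receptor genes in either population. The 2 that were higher, Itgam (1.68) and Lyz2 (1.25), are expressed in neutrophils as well and were named after their values were seen. The number higher was 1 without Axin2+/GFP+ replicate 1 or 2. The part of macrophages in the values of Acp5 and Csf1r was not tested.

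**Figure D4:**
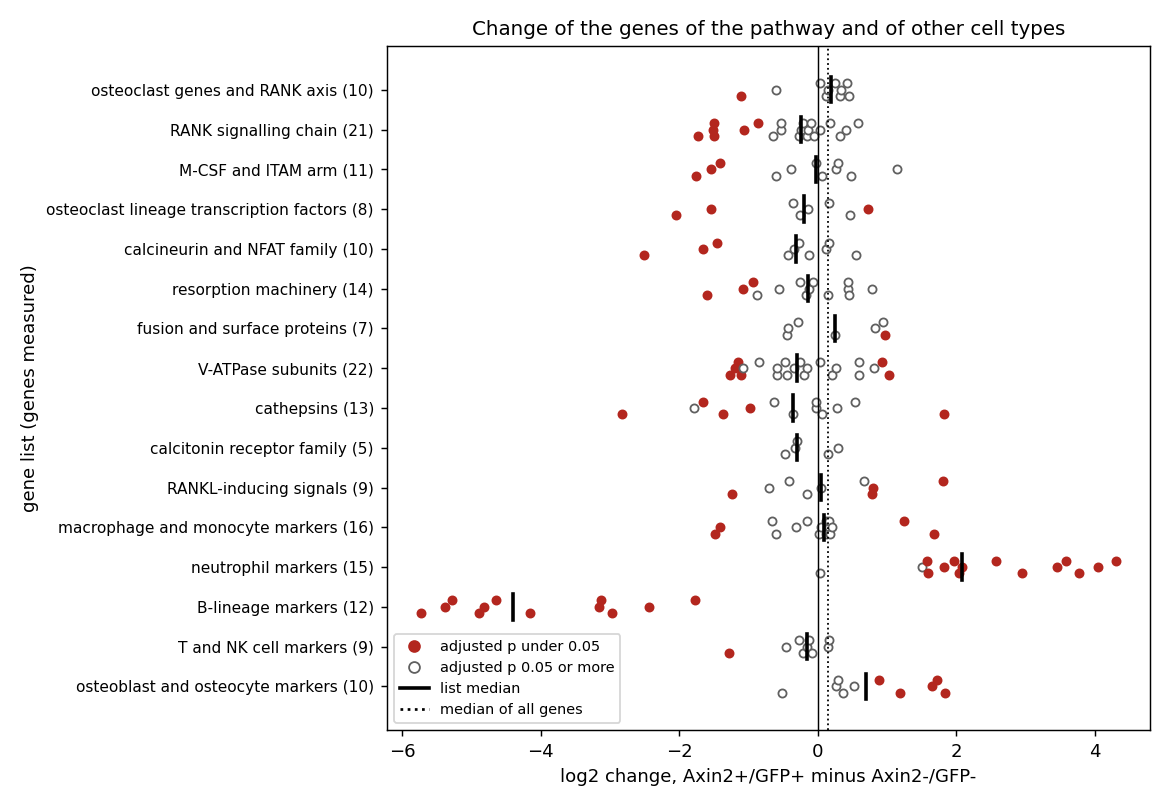
The log2 change between Axin2+/GFP+ and Axin2-/GFP- cells (horizontal axis) is shown for each measured gene of the 10 osteoclast and RANK axis genes, of 10 pathway lists and of 5 lists of other cell types (vertical axis, with the number of genes measured), with 1 point per gene, red where the adjusted p is under 0.05, a black bar at each median and a dotted line at the median of all genes. The 10 osteoclast and RANK axis genes lie near 0 apart from Nfatc1 and Acp5, while all 12 B-lineage markers lie below 0 and the neutrophil markers have their median at 2.08.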

How the data were processed

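Total RNA of FACS-sorted suture mesenchymal cells was labelled for Affymetrix whole-transcript arrays, 1 array per pool. For each array feature the authors deposited a log2 value made by RMA, per the submitters' processing notes, which also name R 3.2.1. For the background step and the level of the probe sets the sources used here give nothing. The log2 scale was taken from the range of the values. Of 35557 features, 21789 had 1 gene symbol in the platform's probe table, and 21698 of these were matched to RefSeq by gene identifier with 0 names changed. Features with several symbols (1621) or none here (12147) were left out. For each gene the brightest feature over the 6 samples was used.

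The 19938 genes went through lmFit and eBayes of limma 3.58.1, run in R 4.3.3, with two-sided p-values and Benjamini-Hochberg adjustment, a procedure tested on simulated data first. Single values also had exact permutation tests. The 17 alternatives were an intensity trend in limma, weights per array, the two-sided t-test of the methods, a block for the replicate number, quantile normalization, cyclic loess, centring on medians or on receptor genes, a filter on dim genes, the mean of a gene's features, a fit to every feature and leaving out each of the 6 samples. Fits without a sample took their spread from the 5 that remained.

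The 10 genes and 16 lists were chosen with earlier results of these data known. Besides the 10 genes, the text names of each pathway list up to 4 called genes with the smallest p and a few fixed genes of the pathway, of each marker list up to 2, and the 5 genes nearest in pattern to any of the 10 whose values span at least 1 log2 unit. Listed genes with no feature of 1 symbol were not analysed here. The number of arrays limits the precision. Protein sequences were not used here.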

Additional observations from a re-analysis of the deposited data

How the results depend on the processing

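Nfatc1 kept its direction and its call under the 17 alternatives, and Acp5, Tnfsf11, Calcr, Ocstamp and Atp6v0d2 kept their direction. The number of the 10 genes called lower was 1 and became 2 after median centring and 2 when centred on receptor genes, by Acp5. With 1 sample left out, the number lower was 1 throughout and the number higher ran from 0 to 1, the 1 being Tnfsf11. The log2 change turned negative for Ctsk after median centring (-0.081) and receptor centring (-0.29) and ran from -0.53 to 0.43 with 1 sample left out. It turned negative after quantile normalization, cyclic loess and receptor centring for Oscar (-0.050, -0.088 and -0.17) and Dcstamp (-0.14, -0.15 and -0.20), and after the last pair for Tnfrsf11a (-0.015 and -0.076). Tnfrsf11b turned to -0.070 with median centring, -0.10 with quantile normalization, -0.16 with loess and -0.28 with receptor centring, and ran from -0.0060 to 0.11 with 1 sample left out. Csf1 turned to 0.27 and 0.22, and Atp6v0d1 to 0.32 and 0.29, after quantile normalization and cyclic loess, with ranges of -0.19 to 0.10 and -0.42 to 0.065 when 1 sample was left out. The cause was not tested. After quantile normalization and cyclic loess the number lower was 1 and 1 in the RANK chain (6 as deposited), 1 and 1 in the resorption list (3), 0 and 1 in the V-ATPase list (4) and 2 and 2 among the cathepsins (4). Receptor centring gave 7 lower in the V-ATPase list, 6 in the NFAT and calcineurin list (3), 5 in the resorption list, 5 among macrophage markers (2) and 3 in the calcitonin receptor family (0). Of the named pathway genes, quantile normalization and cyclic loess ended the calls of Relb, Ikbkb, Cyld, Plcg2, Car2, Tcirg1, Atp6v0b, Ctse, Ctsb, Il6st and Ptger2, and quantile normalization that of Atp6ap2. Median and receptor centring ended those of Jdp2, Adam8 and Il6, and receptor centring those of Pth1r and Ptger2. The fit to every feature ended those of Relb, Ikbkb, Cyld, Tcirg1, Clcn7, Jdp2, Adam8 and Il6, and the intensity trend those of Jdp2 and Adam8. Of the named pathway genes called by limma, only Ppp3cb and Atp6v1g2 also passed the methods' t-test after adjustment, and among the named markers that test lost Ccr2, Ltf, Gzma and Ibsp. Over all genes, limma called 926 higher and 2265 lower, the methods' t-test 211 and 518, the fit to every feature 335 and 1467, and limma after receptor centring 210 and 3980, after median centring 459 and 2719, with quantile normalization 863 and 1165 and with loess 901 and 1373. With 1 sample left out 239 to 852 were higher and 1376 to 2082 lower.

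Deviations from the group means over all genes correlated at 0.031, 0.011 and 0.053 between samples that share replicate number 1, 2 and 3. Between unlike numbers the correlations ran from -0.050 to 0.017, the highest for Axin2+/GFP+ replicate 2 with Axin2-/GFP- replicate 1. Each Axin2-/GFP- sample correlated best with its own number. All the values were small and do not settle whether the numbers are pairs, so the main fit did not pair them. With the replicate number as a block the counts of the 10 genes stayed at 0 higher and 1 lower, Nfatc1 had an adjusted p of 0.0109 and Acp5 of 0.0950 from limma, and 643 genes were higher and 2201 lower over all genes. The block ended the calls of Jdp2 and Adam8, and Prrx1 passed with it (limma adjusted p = 0.0328).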

Other observations

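The family of the calcitonin receptor gave no call, nor did Calcr. Of 5 measured genes, Calcrl, Ramp1, Ramp2, Ramp3 and Calcb, 0 were higher and 0 lower in limma, and the same 0 and 0 held with p under 0.05 before adjustment. Their median log2 change was -0.30. Among all genes limma called 11.4% lower and 4.64% higher. The modifier proteins RAMP1, RAMP2 and RAMP3 set which peptide the calcitonin receptor and its relative CALCRL bind.

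The genes nearest in pattern to Nfatc1 and Ctsk, the 2 of the 10 genes whose values spanned at least 1 log2 unit, were read over the 6 samples among 17067 genes, without receptor genes and gene models that carry only a number. Likeness was the root mean square difference of the log2 values after each gene was centred on its own mean, given as a description with no test. Nearest to Nfatc1 were Pqlc3 (0.050), Phlpp1 (0.077), Ndufab1 (0.082), Ppp1cc (0.082) and Paxbp1 (0.083). These 5 genes had log2 changes from -1.22 to -1.05. Nearest to Ctsk were Itprid2 (0.17), Sdf2 (0.20), Plekhf1 (0.21), Ctla2b (0.21) and LTO1 (0.21), with log2 changes from -0.19 to 0.30.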
